A study of Mus musculus with 12 samples.

Results

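The genes described here are the surface and signalling core of the T cell: the CD3 chains Cd3d, Cd3e and Cd3g, the zeta chain Cd247, the coreceptors Cd4, Cd8a and Cd8b1, the costimulatory receptor Cd28, and the kinases Lck and Zap70. They were chosen by name, 10 of the 57186 genes in the deposited count table, and all 10 were found. RNA was measured in 12 tumours of 4T1, a mammary carcinoma line of the mouse used to model the triple-negative form of breast cancer. In 6 tumours (Tn) Cosmc had been silenced with CRISPR/Cas9 in the 4T1 cells. Cosmc is the protein of C1galt1c1, a chaperone that the core 1 O-glycan synthase needs to fold, and without it O-glycans stop at the Tn antigen. The other 6 tumours (WT) were of parental 4T1 cells. Strain, age and sex of the mice, and whether the silenced line is a single clone, are not given in the sources used here.

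An alpha beta T cell binds peptide on MHC molecules with a receptor that has no signalling tail of its own. The CD3 and zeta chains carry that function in motifs called ITAMs, which Lck phosphorylates and to which Zap70 then binds. CD8, a pair of Cd8a and Cd8b1 chains on most cytotoxic T cells, reads MHC class I, CD4 on helper and regulatory T cells reads class II, and both bring Lck to the receptor. Cd28 adds the costimulatory signal when it meets Cd80 or Cd86 on a presenting cell. In tumours these genes are used as markers of infiltrating T cells. Natural killer cells also express Cd247, Lck and Zap70, and some mouse dendritic cells express Cd8a without Cd8b1, or Cd4.

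The libraries held 113575859 to 156880766 counts. C1galt1c1 ran from 10.8 to 12.9 CPM (counts scaled to a common library size with TMM) in Tn tumours and from 15.5 to 23 CPM in WT tumours. The carcinoma keratins and Epcam (Krt8, Krt18, Krt7, Epcam) summed to 1780 to 3196 CPM in Tn and 2000 to 4113 CPM in WT tumours, so every library held carcinoma RNA. Some libraries stood apart in markers of other tissues. Tn tumour 4 held 897 CPM summed over 5 lymph node stroma markers, 533 of them from Glycam1, a mucin of lymph node vessels, where no other Tn tumour exceeded 14.9 CPM, against 1.12 to 6.54 CPM in WT tumours. It also held 759 CPM summed over 8 B cell markers, where no other Tn tumour exceeded 2.78 CPM, against 0.901 to 1.5 CPM in WT tumours. Tn tumour 6 had the highest keratinocyte sum (2952 CPM) and WT tumour 6 the highest adipocyte sum (434 CPM). The results for the 10 genes, their ratios and the gene lists are therefore also given without Tn tumour 4, and the part that other tissue had in these values was not tested.

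All 10 genes rose in Tn tumours in the quasi-likelihood test of edgeR (p adjusted over 19255 genes by Benjamini-Hochberg, threshold 0.05), with log2 fold changes of 2.75 to 4.38 and a median of 3.68, against a median of 0.01 over all tested genes. Of all tested genes, 19.5% rose by this rule and 36.8% were called in either direction. All 10 also rose without Tn tumour 4, where 19.4% of genes rose and 36.2% were called in either direction, with a lower median of 2.94. They rose as well without Tn tumours 4 and 6 and WT tumour 6, with a median of 2.92, where 16.9% of genes rose and 31.1% were called in either direction. In 8 of the 10, every Tn tumour lay above every WT tumour, as in 8.81% of all tested genes (17.2% did not overlap in either direction). Without Tn tumour 4 the same count was 8 of 10, against 10.3% of tested genes. Cd247 and Cd4 were the exceptions. Each of the 10 had at least 10 counts in all 6 WT tumours, so none was tested through the Tn tumours alone. In bulk tissue, more T cells and more of a transcript in each T cell cannot be told apart.

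**Figure D1:**
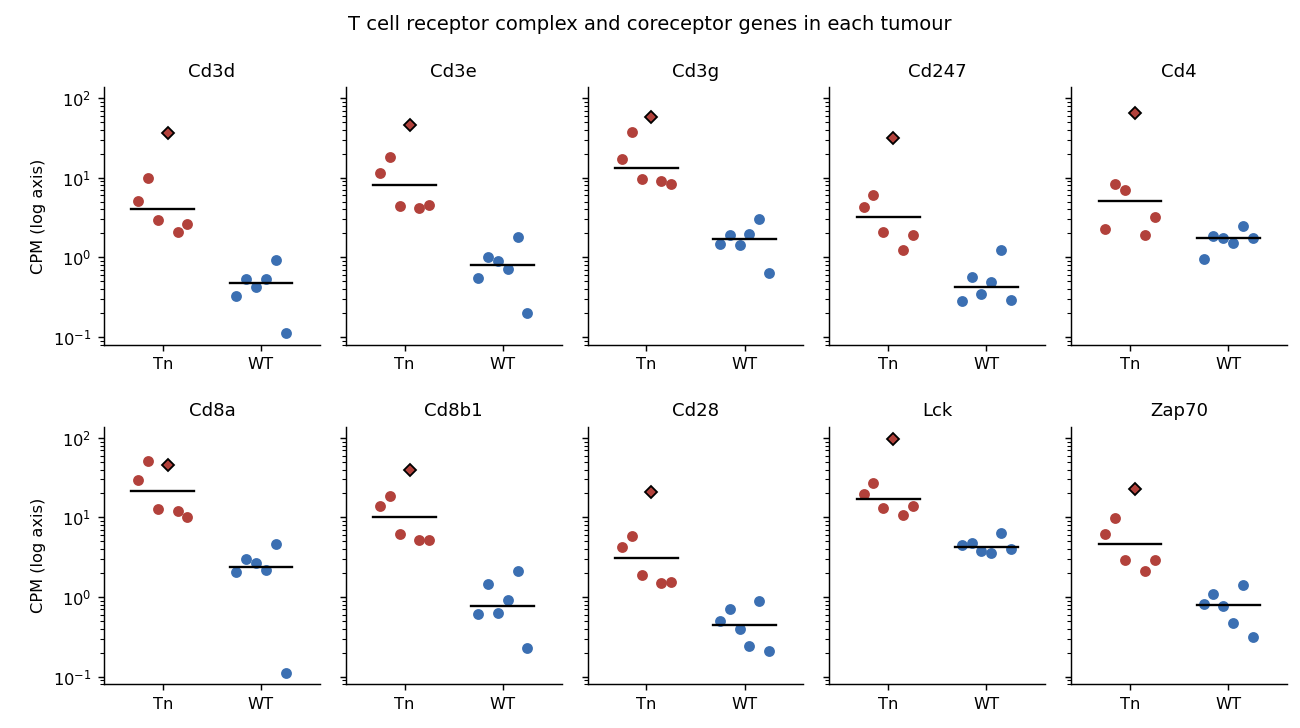
Level of each of the 10 genes in each tumour, in CPM on a log axis; points are tumours, the horizontal line is the group median, and the outlined diamond is Tn tumour 4. The groups do not overlap in 8 panels; they do in Cd247 and Cd4, and Tn tumour 4 is the highest tumour in every panel except Cd8a.

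The CD3 chains had large fold changes, and every Tn tumour lay above every WT tumour in each of them. Cd3e, which pairs with each of the other CD3 chains to build the receptor, ran from 4.2 to 46.6 CPM in Tn tumours, with a median of 8.06, against 0.199 to 1.78 CPM in WT tumours, with a median of 0.81. The means were 14.9 ± 16.5 CPM in Tn and 0.861 ± 0.535 CPM in WT tumours (SD, n = 6 each). On the log2 scale the fold change was 4.11 ± 0.73 (SE throughout for log2 fold changes), with an edgeR adjusted p of 0.00126. The 3 highest Tn tumours for Cd3e were tumours 4, 2 and 1, while Tn tumours 3, 5 and 6 lay close together at 4.41, 4.2 and 4.6 CPM. Cd3d ran from 2.07 to 36.7 CPM in Tn (median 4.04) and from 0.112 to 0.929 CPM in WT tumours (median 0.476), the largest fold change of the set at 4.38 ± 0.82 (edgeR adjusted p = 0.00162). Cd3g ran from 8.43 to 58.7 CPM in Tn (median 13.4) and from 0.638 to 2.99 CPM in WT tumours (median 1.69), at 3.75 ± 0.58 (edgeR adjusted p = 0.000524). WT tumour 6 was the lowest and WT tumour 5 the highest of the WT tumours in all of these chains. Once Tn tumour 4 was left out, the log2 fold changes of the CD3 chains lay close together, at 3.27 for Cd3d, 3.33 for Cd3e and 3.25 for Cd3g (edgeR adjusted p = 0.000952, 0.00111 and 0.000496).

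Cd3d, Cd3e and Cd3g lie next to each other on chromosome 9 (GRCm39), Cd3d at 44893083 to 44899173 on the plus strand, Cd3g at 44880870 to 44891735 and Cd3e at 44910037 to 44920925 on the minus strand. Cd3d and Cd3g are thus read away from each other. The windows around their start sites are shown because these genes moved together, and that of Cd4 because it moved least like them. Each window is 300 bases of the GRCm39 genome, read 5′ to 3′ on the strand of the gene, from 250 bases before the start of the canonical transcript of the GENCODE annotation.
Cd3d, chr9:44892833-44893132, plus strand: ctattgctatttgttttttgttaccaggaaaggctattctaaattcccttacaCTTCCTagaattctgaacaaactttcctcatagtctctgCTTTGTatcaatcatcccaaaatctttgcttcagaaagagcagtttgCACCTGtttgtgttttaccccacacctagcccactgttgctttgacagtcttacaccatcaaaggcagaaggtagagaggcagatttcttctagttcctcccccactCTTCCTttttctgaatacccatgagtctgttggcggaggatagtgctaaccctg
Cd3e, chr9:44920862-44921161, minus strand: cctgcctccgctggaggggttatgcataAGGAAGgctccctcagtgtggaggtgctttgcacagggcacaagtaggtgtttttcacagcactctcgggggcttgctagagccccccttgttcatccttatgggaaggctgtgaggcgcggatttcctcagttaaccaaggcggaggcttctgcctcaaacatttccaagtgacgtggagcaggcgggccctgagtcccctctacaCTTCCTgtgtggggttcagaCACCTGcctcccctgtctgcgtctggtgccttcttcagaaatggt
Cd3g, chr9:44891686-44891985, minus strand: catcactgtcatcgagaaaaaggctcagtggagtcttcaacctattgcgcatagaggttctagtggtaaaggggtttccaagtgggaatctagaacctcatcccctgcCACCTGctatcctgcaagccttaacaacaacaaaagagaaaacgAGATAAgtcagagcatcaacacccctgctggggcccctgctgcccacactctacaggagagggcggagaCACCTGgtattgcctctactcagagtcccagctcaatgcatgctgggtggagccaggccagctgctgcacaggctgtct
Cd4, chr6:124865135-124865434, minus strand: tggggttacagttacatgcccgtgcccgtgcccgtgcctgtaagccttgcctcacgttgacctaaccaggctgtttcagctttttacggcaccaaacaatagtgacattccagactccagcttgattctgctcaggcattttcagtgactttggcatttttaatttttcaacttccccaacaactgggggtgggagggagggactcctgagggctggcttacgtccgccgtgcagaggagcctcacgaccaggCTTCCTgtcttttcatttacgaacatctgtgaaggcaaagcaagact
Capitals mark matches on either strand to 5 motifs of factors known from T cells, and no matches overlap in these windows. The ETS core AGGAAG occurs in the windows of 7 of the 10 genes and in 34.4% of 21757 windows of protein-coding genes. The E-box CACCTG occurs in 6 of the 10, Cd3d, Cd3e and Cd3g among them, and in 20.6% of all windows. The GATA motif AGATAA occurs in 3 of the 10 and in 10.6% of all windows. The RUNX core TGTGGT occurs in 2 of the 10, Cd28 and Lck, and in 15.3% of all windows. The TCF and LEF motif CTTTGT occurs in 1 of the 10, Cd3d, and in 18.2% of all windows. The window of Cd8a holds none of these motifs. A match describes the letters and not a bound site.

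The zeta chain Cd247, which carries most of the ITAMs of the receptor, ran from 1.23 to 31.8 CPM in Tn tumours (median 3.18) and from 0.28 to 1.23 CPM in WT tumours (median 0.422). The lowest Tn tumour, tumour 5, and the highest WT tumour, tumour 5, met at 1.23 CPM, and the other 5 Tn tumours lay above all WT tumours. Tn over WT, the log2 fold change was 3.88 ± 0.84 (edgeR adjusted p = 0.00388), and 2.56 ± 0.50 without Tn tumour 4 (edgeR adjusted p = 0.00262). Cd247 overlaps Pou2f1, which lies on the opposite strand, and the counting did not use strand.

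Among the coreceptors, the fold changes of both CD8 chains were larger than that of Cd4. Cd8a ran from 10.1 to 50.7 CPM in Tn tumours (median 21.2), against 0.112 to 4.69 CPM in WT tumours (median 2.4). The log2 fold change of Cd8a was 3.45 ± 0.69 (edgeR adjusted p = 0.00235), and the lowest value, in WT tumour 6, rested on 14 counts. Cd8a alone was not highest in Tn tumour 4 (45.8 CPM) but in Tn tumour 2. Cd8b1, the chain that dendritic cells lack, ran from 5.16 to 39.6 CPM in Tn (median 10.1) and from 0.231 to 2.1 CPM in WT tumours (median 0.771), at 3.90 ± 0.66 (edgeR adjusted p = 0.00096). Both CD8 chains kept a log2 fold change above 3 without Tn tumour 4, at 3.25 for Cd8a and 3.34 for Cd8b1 (edgeR adjusted p = 0.00406 and 0.00108).

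Cd4 ran from 1.93 to 64.6 CPM in Tn tumours (median 5.14) and from 0.954 to 2.5 CPM in WT tumours (median 1.75). Tn tumours 1 and 5, at 2.26 and 1.93 CPM, lay within the WT range, and Tn tumour 4 stood at 7.82 times the next Tn tumour. The log2 fold change was 3.08 ± 0.85 (edgeR adjusted p = 0.0138). Leaving out Tn tumour 4, the Cd4 mean was 4.55 ± 2.93 CPM in Tn tumours (SD, n = 5) and 1.72 ± 0.502 CPM in WT tumours (SD, n = 6), with a log2 fold change of 1.41 ± 0.39 (edgeR adjusted p = 0.0154), the lowest of the 10 genes. With limma voom Cd4 did not pass, at 1.62 (adjusted p = 0.0634).

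Cd28 ran from 1.49 to 21 CPM in Tn tumours (median 3.06) and from 0.207 to 0.903 CPM in WT tumours (median 0.444), at 3.61 ± 0.73 (edgeR adjusted p = 0.00264), and the groups did not overlap. Leaving out Tn tumour 4, the Cd28 log2 fold change was 2.63 (edgeR adjusted p = 0.00193). Of the ligands fixed beside it, Cd86, a ligand of Cd28, rose by 1.05 and Icosl, the ligand of the related receptor Icos, by 1.35 (edgeR adjusted p = 0.0101 and 0.0129). Both also passed without Tn tumour 4, at 1.03 and 0.85 (edgeR adjusted p = 0.0172 and 0.00624). Cd80, the other ligand of Cd28, averaged 5.42 ± 1.68 CPM in Tn and 4.32 ± 0.576 CPM in WT tumours (SD, n = 6 each) and did not pass with Tn tumour 4 (edgeR adjusted p = 0.208) or without it (0.264).

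The kinases had lower fold changes than the CD3 chains, a difference tested as ratios after the levels. Lck ran from 10.8 to 97.6 CPM in Tn tumours (median 16.9) and from 3.61 to 6.33 CPM in WT tumours (median 4.25), the smallest fold change of the set at 2.75 ± 0.53 (edgeR adjusted p = 0.00186). Zap70 ran from 2.14 to 22.9 CPM in Tn (median 4.59) and from 0.311 to 1.4 CPM in WT tumours (median 0.794), at 3.27 ± 0.63 (edgeR adjusted p = 0.00189). Lck varied little among the WT tumours, and WT tumour 6, lowest of all for the CD3 chains, held 4.01 CPM of it. Without Tn tumour 4 the log2 fold changes were 1.92 ± 0.24 for Lck and 2.58 ± 0.47 for Zap70 (edgeR adjusted p = 0.000186 and 0.00173).

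**Figure D2:**
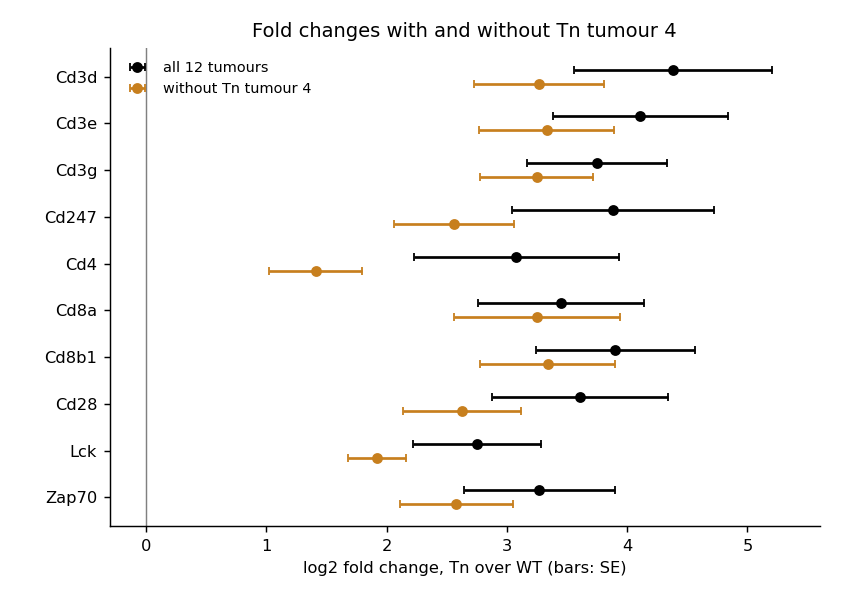
Log2 fold change of each gene, Tn over WT, with its standard error from edgeR, for all 12 tumours (black) and without Tn tumour 4 (orange). All points lie above 0; without Tn tumour 4 the CD3 and CD8 chains stand between 3.25 and 3.34, Lck at 1.92 and Cd4 at 1.41.

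Per kilobase of exon, the order of the genes differed between the groups. In Tn tumours Cd8b1 came first with a median of 6.82 CPM per kilobase, followed by Cd8a (5.83), Lck (5.77), Cd3g (4.1), Cd3d (2.23), Cd3e (1.97), Zap70 (1.53), Cd4 (1.27), Cd247 (0.596) and Cd28 (0.5). In WT tumours Lck came first at 1.45 CPM per kilobase, then Cd8a (0.661), Cd8b1 (0.52), Cd3g (0.518), Cd4 (0.435), Zap70 (0.265), Cd3d (0.262), Cd3e (0.198), Cd247 (0.0791) and Cd28 (0.0725). Neighbours in these orders overlapped in their ranges in each group, but the ranges carry the spread between tumours and do not give the order within a tumour. Cd3d, next to Cd3e in both orders, exceeded it per kilobase in every tumour, at ratios of 1.01 to 1.77. The order of Cd8b1 and Cd8a differed between tumours, at ratios of 0.585 to 4.99. Within the WT tumours, Lck (1.23 to 2.16 CPM per kilobase) did not overlap Cd3g (0.195 to 0.914 CPM per kilobase) or any gene after it.

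Ratios between genes of the same library need no scaling between libraries, and 12 were tested, each as log2 counts per kilobase by an exact two-sided permutation test with p adjusted over the 12. The Cd8b1 to Cd4 ratio was 1.67 to 16.9 in Tn tumours (median 5.34) and 0.36 to 2.29 in WT tumours (median 1.69). In 5 of 6 Tn tumours it lay above every WT tumour, the exception being Tn tumour 4. On the log2 scale the Tn mean was higher by 1.90 (exact permutation p = 0.013, adjusted p = 0.039), and without Tn tumour 4 by 2.21 (p = 0.00216, the smallest the exact test can give, adjusted p = 0.013). The adjusted p of this ratio stayed under 0.05 in 3 of the 12 fits that leave out a tumour and reached 0.0844 without Tn tumour 1, while the unadjusted exact p was at most 0.0281.

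The Cd8a to Cd4 ratio was 0.787 to 14.5 in Tn tumours (median 5.16) and 0.0722 to 2.38 in WT tumours (median 1.75). Tn tumour 4 was the only Tn tumour with more Cd4 than Cd8a per kilobase, and WT tumour 6 the only such WT tumour. The difference in log2 means was 1.85 and did not pass (exact permutation p = 0.0779, adjusted p = 0.134). Without Tn tumour 4 it was 2.31 and passed (exact permutation p = 0.0108, adjusted p = 0.026), with WT tumour 6 still in the comparison. Without Tn tumours 4 and 6 and WT tumour 6 it was 1.68 and did not pass after adjustment (exact permutation p = 0.0238, adjusted p = 0.0571), where the smallest p the test can give is 0.00794.

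**Figure D3:**
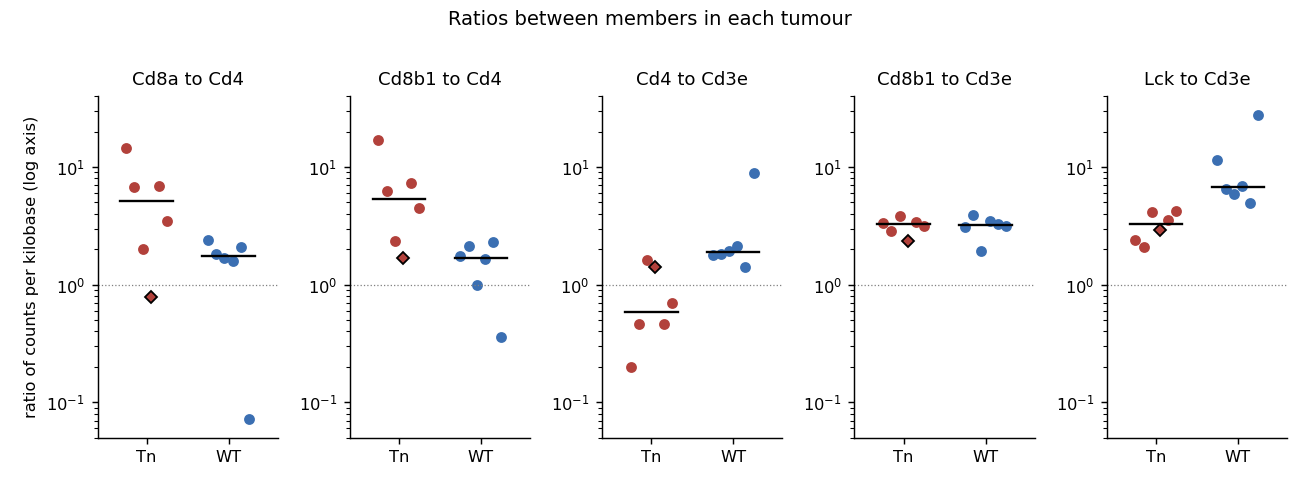
Ratios between genes in each tumour, as counts per kilobase on a log axis; points are tumours, the horizontal line is the group median, the outlined diamond is Tn tumour 4 and the dotted line marks equal levels. Cd8b1 to Cd3e lies between 2.34 and 3.82 in Tn and between 1.93 and 3.94 in WT tumours, while Cd4 and Lck are lower relative to Cd3e in Tn tumours.

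Set against Cd3e, the CD8 chain Cd8b1 held nearly the same ratio in both groups, at a median of 3.25 in Tn and 3.21 in WT tumours, a log2 difference of 0.02 (exact permutation p = 0.9, adjusted p = 0.926). Cd3d to Cd3e differed by 0.02, Cd8a to Cd3e by -0.03 and Cd3g to Cd3e by -0.30 (exact permutation adjusted p = 0.926, 0.926 and 0.292). The differences without Tn tumour 4 were 0.10 for Cd8b1, -0.07 for Cd3d, 0.21 for Cd8a and -0.20 for Cd3g, and none passed (exact permutation adjusted p = 0.823, 0.797, 0.97 and 0.549). A p of this size does not show that the ratios are equal. Cd4 to Cd3e, by contrast, was lower in Tn tumours, at 0.199 to 1.63 (median 0.583) in Tn and 1.42 to 8.83 (median 1.9) in WT tumours, a log2 difference of -1.88 (exact permutation p = 0.00433, adjusted p = 0.0173). Only Tn tumour 3, at 1.63, lay inside the WT range. Lck to Cd3e was 2.09 to 4.26 in Tn and 4.94 to 27.5 in WT tumours, and Zap70 to Cd3e 0.67 to 0.893 in Tn and 0.893 to 2.11 in WT tumours. In both, every Tn tumour lay below every WT tumour, though for Zap70 the nearest pair, Tn tumour 3 and WT tumour 4, were both 0.893 after rounding, with log2 differences of -1.47 and -0.86 (each with exact permutation p = 0.00216, the smallest possible, and adjusted p = 0.013). Cd4, Lck and Zap70 relative to Cd3e also passed without Tn tumour 4, at -2.10, -1.45 and -0.82 (exact permutation adjusted p = 0.013 each), but none of them passed as a difference of medians (exact permutation adjusted p = 0.0519 each). Cd4 to Cd3e missed the threshold with WT tumour 1, 2, 4 or 6 left out (highest adjusted p 0.0779, exact permutation test). Cd247 to Cd3e differed by -0.66 and missed the threshold over 12 tumours (exact permutation adjusted p = 0.0909), but it passed at -0.81 without Tn tumour 4 (adjusted p = 0.0303, exact permutation test) and at -0.81 without WT tumour 3 (0.0416). Cd28 to Cd3e differed by -0.70 over 12 tumours (exact permutation adjusted p = 0.0675) and by -0.75 without Tn tumour 4 (0.0557). It passed without WT tumour 3 (-0.79, exact permutation adjusted p = 0.0416), without WT tumour 4 (-0.86, 0.0173) and with a pseudocount of 10 counts (-0.75, 0.026).

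Cd8b1 to Cd8a, which separates the paired CD8 of T cells from Cd8a alone, was 0.911 to 2.12 in Tn and 0.585 to 4.99 in WT tumours and differed by 0.05 on the log2 scale (exact permutation p = 0.926, adjusted p = 0.926), and by -0.10 without Tn tumour 4 (adjusted p = 0.97). The extremes were Tn tumour 4 and WT tumour 6. Markers of cells that share single members were measured beside these genes. Their counts stand against 19.5% of all tested genes higher and 36.8% called in either direction over 12 tumours. Without Tn tumour 4 these shares were 19.4% and 36.2%. Markers of type 1 dendritic cells (Xcr1, Clec9a, Batf3, Tlr3 and Cadm1) summed to 67.2 to 127 CPM in Tn and 52.4 to 72.1 CPM in WT tumours. Most of this sum was Tlr3 (45.8 to 64.8 CPM in Tn, 37.2 to 50.9 CPM in WT tumours), which did not pass (edgeR adjusted p = 0.164). Of the 5, 3 rose, Batf3 (1.41), Xcr1 (3.05) and Clec9a (1.43). Leaving out Tn tumour 4, Batf3 was at 1.44 and Xcr1 at 2.78, and 3 of 5 rose. Clec9a then missed the threshold (edgeR adjusted p = 0.0534) and Cadm1 passed (0.92, edgeR adjusted p = 0.048). Natural killer cell markers summed to 3.75 to 19.8 CPM in Tn and 5.14 to 7.21 CPM in WT tumours. In WT tumours most of this sum was Eomes, at 4.33 to 6.43 CPM, against 0.328 to 6.69 CPM in Tn tumours. Of the 5 tested, 4 rose, among them Klrd1 (2.97) and Klre1 (2.80), which some T cells also express, Ncr1 (2.22) and Klrb1c (1.97), while Eomes was at -0.87 and did not pass (edgeR adjusted p = 0.184) and Klra8 was at or near 0 in all tumours. Leaving out Tn tumour 4, 3 rose, Klrb1c missed the threshold (edgeR adjusted p = 0.0585) and Eomes fell by 1.34 (edgeR adjusted p = 0.0318). Macrophage markers summed to 679 to 1906 CPM in Tn and 484 to 766 CPM in WT tumours, with 3 of 5 higher, and 4 of 5 without Tn tumour 4. The sums of plasmacytoid dendritic cell markers were 1.54 to 12.9 CPM in Tn and 0.629 to 2.59 CPM in WT tumours, with 0 of 4 called by edgeR and adjusted p from 0.0648 to 0.0884, and 0 of 4 without Tn tumour 4, with adjusted p from 0.135 to 0.287. The part of these cells in the levels of Cd247, Lck, Zap70, Cd4 and Cd8a was not tested. Rag1, Rag2 and Ptcra, genes of thymocytes, were at or near 0 in all tumours, and Dntt was at most 0.389 CPM in any of them. At that level Dntt was called higher in Tn tumours, at 1.70 with Tn tumour 4 and 1.49 without it (edgeR adjusted p = 0.0215 and 0.0425).

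The receptor chains themselves did not all follow CD3. Trac, the constant gene of the alpha chain, ran from 5.11 to 77 CPM in Tn tumours (median 11) and from 1.39 to 3.46 CPM in WT tumours (median 2.19), at 3.29 ± 0.67 (edgeR adjusted p = 0.00262). Trbc2, a constant gene of the beta chain, ran from 5.06 to 70.6 CPM in Tn and from 0.74 to 1.63 CPM in WT tumours, at 4.26 ± 0.68 (edgeR adjusted p = 0.000679). The groups did not overlap in Trac or Trbc2, and leaving out Tn tumour 4 their log2 fold changes were 2.33 and 3.33 (edgeR adjusted p = 0.00141 and 0.000208). Trbc1, the other beta constant gene, ran from 1.1 to 36.1 CPM in Tn tumours (median 3.9) and from 3.6 to 21.2 CPM in WT tumours (median 14.1). It did not pass over all 12 tumours (log2 fold change -0.63 ± 0.76, edgeR adjusted p = 0.549), and without Tn tumour 4 it was lower in Tn tumours, at -2.0 ± 0.52 (edgeR adjusted p = 0.0108). Per kilobase, Trbc2 exceeded Trbc1 in every Tn tumour, and Trbc1 exceeded Trbc2 in every WT tumour. Trbc1 and Trbc2 are close copies, so reads that fit both are uncertain.

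**Figure D4:**
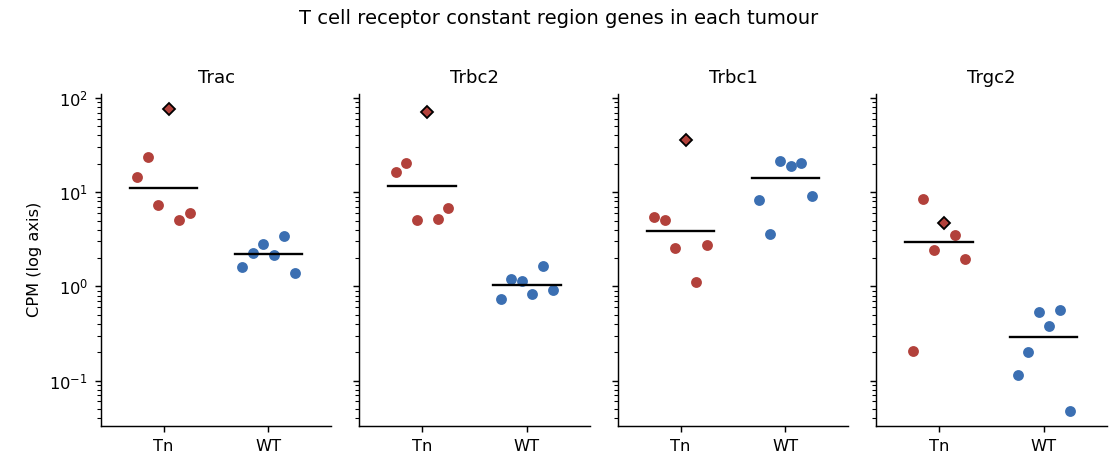
Level of T cell receptor constant genes in each tumour, in CPM on a log axis; points are tumours, the horizontal line is the group median, and the outlined diamond is Tn tumour 4. Trac and Trbc2 are higher in all Tn tumours than in all WT tumours, while Trbc1 has its median at 3.9 CPM in Tn and 14.1 CPM in WT tumours.

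Of the chains of the gamma delta receptor, only constant genes of the gamma chain passed the test. Trdc, the delta constant gene, averaged 0.783 ± 0.738 CPM in Tn and 0.296 ± 0.146 CPM in WT tumours (SD, n = 6 each) and did not pass (log2 fold change 1.40 ± 0.59, edgeR adjusted p = 0.081; 0.81 and 0.222 without Tn tumour 4). The gamma constant genes Trgc1 (1.75), Trgc2 (3.53) and Trgc4 (2.84) rose (edgeR adjusted p = 0.0259, 0.0042 and 0.00308), and Trgc3 was too low to test. Their values without Tn tumour 4 were 1.68, 3.44 and 2.83 (edgeR adjusted p = 0.04, 0.00676 and 0.00511). Trgc1 and Trgc4 were low, at most 0.75 and 0.898 CPM in any tumour. Each had at least 10 counts in only 3 of the 6 WT tumours. Trgc1 did not pass without Tn tumours 4 and 6 and WT tumour 6 (0.94, edgeR adjusted p = 0.209). Trgc2 was highest in Tn tumour 2 at 8.45 CPM and was 0.208 CPM in Tn tumour 1, inside the WT range of 0.0478 to 0.556 CPM. In all, 5 of 7 tested constant genes rose and 0 fell, where 19.5% of all tested genes rose and 36.8% were called in either direction. Without Tn tumour 4, 5 rose and Trbc1 fell, against 19.4% of all tested genes higher and 36.2% called in either direction.

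Downstream of the receptor, 25 of 39 signalling genes rose and 0 fell, with a median log2 fold change of 0.93 against 0.01 over all tested genes. Of all tested genes, 19.5% rose and 36.8% were called in either direction. Sla2, an adaptor that restrains receptor signalling, rose by 2.08 ± 0.33, and Rasgrp1, which activates Ras below the receptor, by 1.99 ± 0.35 (edgeR adjusted p = 0.000561 and 0.00117). Csk, the kinase that holds Lck inactive, rose by 0.60 and Dgkz, which limits diacylglycerol, by 0.32 (edgeR adjusted p = 0.00134 and 0.00105). The T cell kinases and adaptors Prkcq (3.84), Themis (3.32) and Lat (3.16), named after their values were seen, rose, and without Tn tumour 4 were at 2.61, 2.68 and 1.79. Skap1 and Txk, an adaptor and a kinase of T cells named in the same way, were at 1.28 and 0.72 and did not pass (edgeR adjusted p = 0.102 and 0.369). Fyn, a kinase related to Lck, averaged 37.1 ± 10.1 CPM in Tn and 36 ± 3.76 CPM in WT tumours (SD, n = 6 each; edgeR adjusted p = 0.849), and Plcg1, Nfatc1, Bcl10 and Malt1 did not pass either. Many of these signalling genes are also expressed by other leukocytes or by carcinoma cells. Without Tn tumour 4, 26 rose and 2 fell, Nfatc3 (-0.25) and Malt1 (-0.32), where 19.4% of all tested genes rose and 36.2% were called in either direction.

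All 5 tested T cell surface receptors rose, namely Cd2 (4.30), Cd6 (3.74), Cd27 (3.28), Icos (2.77) and Cd5 (3.05), at edgeR adjusted p of 0.00328, 0.00487, 0.00596, 0.00615 and 0.0104. They also rose without Tn tumour 4, by 1.59 to 2.62, and Cd40lg was too low to test. Of the T lineage transcription factors, 4 of 10 rose and 0 fell, where 19.5% of all tested genes rose and 36.8% were called in either direction. With Tn tumour 4 left out, 3 rose and 2 fell, where 19.4% of all tested genes rose and 36.2% were called in either direction. Tbx21, the factor of type 1 helper and effector CD8 cells, rose by 3.42 (edgeR adjusted p = 0.00109), and Foxp3, the factor of regulatory T cells, by 2.88 (edgeR adjusted p = 0.0251), but Foxp3 did not pass without Tn tumour 4, at 1.36 (edgeR adjusted p = 0.0785). Zbtb7b, needed for the CD4 lineage, rose by 0.32 (edgeR adjusted p = 0.00693). Zbtb7b averaged 117 ± 14.7 CPM in Tn and 93.9 ± 3.99 CPM in WT tumours (SD, n = 6 each), and epithelial cells also express it. The genes that fell without Tn tumour 4 were Tcf7 and Satb1, at -0.72 and -1.32 (edgeR adjusted p = 0.0268 and 0.0065). In WT tumours Tcf7 ran from 16.7 to 24.3 CPM and Satb1 from 4.05 to 9.12 CPM, where Cd3e ran from 0.199 to 1.78 CPM. Which cells the Tcf7 and Satb1 RNA came from was not tested, so their fall is not read as a change in T cells.

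The genes most like the CD3 chains were found from the correlation of log2 CPM with the mean of Cd3d, Cd3e and Cd3g, after the mean of each group was taken off, over 13992 genes with at least 1 CPM on average. Over 12 tumours these included Sp100 (Pearson r = 0.96), Cd96 (0.96), Ms4a4b (0.96), Ubash3a (0.95) and Sla2 (0.95). Without Tn tumour 4 they included Klrc1 (0.97), Klrd1 (0.97), Nkg7 (0.97), Fasl (0.96) and Pdcd1 (0.96), none of which is among those named over 12 tumours. Among the members, Cd8b1 followed the CD3 chains most closely (0.97 with and 0.97 without Tn tumour 4), and Cd4 least (0.73 with and 0.40 without). The correlation of Zap70 was 0.95 with and 0.92 without Tn tumour 4, and that of Lck 0.86 and 0.78. These values describe 12 tumours that share a library preparation, and no p is given for them.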

How the data were processed

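Tumour RNA with an RNA integrity above 7 was made into stranded poly(A) libraries and read as pairs, per the labels and the design text. Per the submitters' processing notes the tools were FastQC, fastp 0.23, STAR 2.7.11a and featureCounts of Subread 2.1.1, with the build GRCm39. The authors deposited raw exon counts for each gene of Ensembl 112, per the file headers, counted without strand. Each end of a pair seems to be counted, since 66.4% to 72.5% of low counts were even. Gene lengths in the deposited table, in bases, served for levels per kilobase. Of 57186 identifiers, 56630 were paired with a symbol of the GENCODE vM39 annotation.

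The counts of 6 Tn and 6 WT tumours were compared with edgeR 4.0.16 in R 4.3.3 (TMM, filterByExpr, robust quasi-likelihood fit, two-sided, Benjamini-Hochberg over 19255 genes). The fit was also run on simulated counts. These had the same dispersion for every gene, lower than that of the data, and no outlying tumour, so that run does not bear on the calls made here. CPM are TMM-scaled, log2 fold changes are Tn over WT, and their standard errors were taken from the root of the F statistic. The biological coefficient of variation was 0.358. Ratios added 0.5 counts to each gene and were tested over all 924 assignments. As alternatives, DESeq2 1.42.0, limma 3.58.1 voom, RLE and upper-quartile scaling were run, with other filters, pseudocounts and medians, the replicate number as a block, and tumours left out. Members and lists were chosen with earlier results of these data known. Named genes are the members, C1galt1c1, the constant genes, up to 4 genes of smallest p per list with any that moved against their list, and the 6 genes most like the CD3 chains; some genes that this rule names are not reported here. The labels do not say that the tumours came from separate mice, so p-values measure only the spread between these samples. No libraries of a group agreed within sampling noise (lowest chi-square per degree of freedom 42.2). The labels name a single batch. All Tn libraries carry lower library numbers than all WT libraries, which cannot be told apart from the group. Counting error alone is small where counts are high, but the lowest WT values rest on 14 counts. Both ends of a pair seem to be counted, so these values rest on fewer pairs than that.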

Additional observations from a re-analysis of the deposited data

Results flagged for a closer look

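In Tn tumour 4, values lay far from the other 5 Tn tumours for 7 of the 10 genes. It held 36.7 CPM of Cd3d (next 9.9), 46.6 CPM of Cd3e (next 18), 31.8 CPM of Cd247 (next 6.11), 64.6 CPM of Cd4 (next 8.26), 21 CPM of Cd28 (next 5.9), 97.6 CPM of Lck (next 26.9) and 22.9 CPM of Zap70 (next 9.72). Cd8a and Cd3g of this tumour did not stand apart in this way. Cd8b1, at 39.6 CPM (next 18.8), was not flagged but fell just short of the cutoff. Its Cd8b1 to Cd8a ratio of 2.12 was the highest of the Tn tumours (next 1.28), and its Cd8a to Cd3e ratio of 1.1 the lowest (next 2.46). This is the tumour with the lymph node stroma and B cell markers.

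WT tumour 6 stood apart from the other WT tumours in 6 ratios, with 0.0722 for Cd8a to Cd4 (next 1.58), 4.99 for Cd8b1 to Cd8a (next 1.18), 1.1 for Cd247 to Cd3e (next 0.531), 8.83 for Cd4 to Cd3e (next 2.12), 0.638 for Cd8a to Cd3e (next 2.95) and 27.5 for Lck to Cd3e (next 11.4). Its Cd3e rested on 25 counts and its Cd8a on 14. Cd247 was also high in WT tumour 5, at 1.23 CPM (next 0.571), and the Cd8b1 to Cd4 ratio in Tn tumour 1, at 16.9 (next 7.27). These were 8 of 20 groups tested for the genes and 9 of 24 for the ratios. The gaps were taken on CPM and on ratios, not on the log scale. The groups also share tumours and genes, so these counts cannot be set against chance.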

How the results depend on the processing

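All 10 genes were called higher under every alternative except limma voom and the replicate block, where Cd4 was not called. Over the 20 alternatives the log2 fold changes ran from 1.41 to 3.31 for Cd4 and from 3.18 to 3.74 for Cd8a. The split of all called genes moved with upper-quartile scaling, to 3094 higher and 3844 lower, against 3752 and 3342, and 10 of 10 members stayed higher. The Cd8b1 to Cd4 ratio did not pass as a difference of medians, at 1.64 (exact permutation adjusted p = 0.0584), and ran from 1.53 to 2.21 with each tumour left out. The Cd8a to Cd4 ratio ran from 1.06 to 2.31 and passed without Tn tumour 4 alone. Ratios near 0 on the log2 scale changed sign: Cd3d to Cd3e was -0.08 with a pseudocount of 10 counts and -0.08 without Tn tumours 4 and 6 and WT tumour 6, and with each tumour left out it ran from -0.07 to 0.10, Cd8b1 to Cd8a from -0.15 to 0.47, Cd8a to Cd3e from -0.43 to 0.21 and Cd8b1 to Cd3e from -0.11 to 0.10. Lck and Zap70 to Cd3e passed with each tumour left out, and Cd4 to Cd3e in 8 of 12 such fits. Lck, Zap70 and Cd4 to Cd3e did not pass as differences of medians (exact permutation adjusted p = 0.0519 each). The cause of these changes was not tested.

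Tumours with the same number share only that number: the correlations of their deviations from the group means ran from -0.125 to 0.158, and 1 of 12 tumours matched its own number best. With the replicate number as a block 9 of 10 members were called, Cd4 being at 1.75 (edgeR adjusted p = 0.0901), and 5876 genes were called against 7094. The paired sign-flip test of the Cd8b1 to Cd4 ratio (1.90) cannot give a p below 0.0312 and did not pass after adjustment (exact permutation adjusted p = 0.0938), and the same p and adjusted p were found for Lck (-1.47), Zap70 (-0.86) and Cd4 (-1.88) to Cd3e.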

Other observations

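Variable segments of the receptor give a coarse view of which chains the T cells used. Over 22 Trbv segments, Tn tumour 1 had 84.7% of its 767 counts in Trbv1, and over 110 Trav segments 82.9% of its 642 counts were in Trav3-3. Tn tumour 2 had 63.1% of its 385 Trav counts in Trav3-3 and 45.4% of its 709 Trbv counts in Trbv31, and Tn tumour 5 had 48.6% of its 327 Trbv counts in Trbv13-2. Tn tumour 4 was spread most widely among the Tn tumours, with 4703 Trbv counts over 22 segments and 14.3% in the most used, Trbv13-2. At a common depth of 14 counts, 2.93 Trbv segments were expected in Tn tumour 1, 8.41 in Tn tumour 4 and between 4.12 and 7.91 in the other Tn tumours. The WT tumours held 14 to 71 Trbv counts each, too few to rank. The segments are close copies, each pair adds about 2 counts, and no test was made.

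The joining segments, looked at after the values of Trbc1 were seen, set the groups apart. Trbj1-6, which lies in the cluster next to Trbc1, had 3, 4, 0, 32, 0 and 1 counts in Tn tumours 1 to 6, against 76, 25, 115, 187, 120 and 64 counts in WT tumours 1 to 6. It made up 83.3% to 94.1% of the Trbj counts of each WT tumour, and no Tn tumour had it as its most used segment. The same WT tumours held 448 to 2906 counts of Trbc1 and 90 to 188 of Trbc2, and 14 to 71 counts over all Trbv segments. The joining counts of WT tumours are therefore not read as chain use by T cells, and their source was not tested.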
